A study of Homo sapiens with 4 samples.

Results

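Chemokines are small secreted proteins that attract leukocytes, and 6 of their genes are described here: CCL3, CCL4, CCL22, CXCL10, CXCL13 and PF4. They were measured in OCI-Ly3, an established human line from an activated B-cell-like diffuse large B-cell lymphoma that signals constantly through NF-kB, on 4 two-colour arrays. All probes that the platform's annotation assigns to these genes were taken, which gave 26 of 15246 probes, for 6 of the 4604 genes that the array names. Of the 26, 19 had a value on all 4 arrays and 7 did not. All cells carried a hairpin RNA that targets CHUK, the gene of the kinase IKKa, once doxycycline is given, and both dye channels of an array shared the same inhibitor status. The Cy5 channel held cells given doxycycline at 20 ng/ml, and the Cy3 channel held cells without doxycycline. In the first group neither channel had inhibitor, with doxycycline for 2 days on 1 array and 3 days on the other. In the second group MLN120b, which blocks IKKb, was present in each channel at 12.5 uM, for 3 h where doxycycline had run for 2 days and for 24 h where it had run for 3 days. No array set doxycycline against none in cells without the hairpin, so effects of the drug and of the hairpin cannot be told apart. Day of doxycycline and hours of inhibitor also changed together.

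Values are log2 ratios whose likely direction is Cy5 over Cy3, so that a negative value means less RNA with doxycycline. This direction rests on the dye labels and on CHUK, whose 2 probes were below 0 on all 4 arrays. Turned, every lower value here would be a higher one. Ratios give no expression level, so whether OCI-Ly3 holds its B-cell markers cannot be read from them. Of the probes for B cell markers 73.8% had a value on all arrays, as had 73.1% of the 26 chemokine probes, against 50% for T cell, 57.1% for myeloid and 40% for platelet markers and 64.2% of all probes. The spread of all probes (median absolute deviation) without inhibitor was 0.128 at 2 days and 0.215 at 3 days, and on the inhibitor arrays 0.193 and 0.286, so large ratios were more common on the 3-day arrays. The 2 arrays of a group are different times rather than repeats, nothing says that they came from separate cultures, so a p-value reflects no more than how far these arrays differ, which may be technical. In such bulk RNA, fewer cells of a type and less RNA per cell cannot be told apart.

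NF-kB is held in the cytoplasm by IkB proteins until the IkB kinase complex, with its catalytic subunits IKKa and IKKb, marks them for destruction. NF-kB then binds kB sites in DNA and switches on genes of inflammation and survival, several chemokines among them. CCL3 and CCL4 are made by activated lymphocytes and macrophages, CCL22 draws T cells that carry CCR4, CXCL10 draws T cells that carry CXCR3 and is also induced by interferon, CXCL13 guides B cells with CXCR5 into follicles, and PF4 is a granule protein of platelets.

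The stretches before the transcription starts of CXCL10, CXCL13 and CCL22 are shown because these 3 genes had the lowest ratios of the 6. They are the 250 bases before a RefSeq start (build GRCh38.p14), written 5′ to 3′ on the gene's strand. The motifs searched on both strands were the kB consensus of 10 bases, the interferon response core GAAANNGAAA and the TATA box TATAAA, and matches are in capitals. The CXCL10 window lies at chr4:76023498-76023747 on the minus strand, the CXCL13 window at chr4:77605570-77605819 on the plus strand (the second of its 2 starts in the table) and the CCL22 window at chr16:57358533-57358782 on the plus strand.
CXCL10: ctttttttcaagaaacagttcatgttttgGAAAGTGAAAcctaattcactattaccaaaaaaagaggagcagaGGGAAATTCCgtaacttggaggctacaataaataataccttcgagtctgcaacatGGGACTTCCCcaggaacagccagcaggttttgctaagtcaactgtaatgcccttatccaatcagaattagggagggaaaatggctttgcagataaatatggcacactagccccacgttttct
CXCL13: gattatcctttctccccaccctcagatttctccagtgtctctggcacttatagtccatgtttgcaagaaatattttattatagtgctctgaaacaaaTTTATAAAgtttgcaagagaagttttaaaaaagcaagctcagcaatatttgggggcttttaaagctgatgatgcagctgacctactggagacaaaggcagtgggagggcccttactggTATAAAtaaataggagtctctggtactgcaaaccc
CCL22: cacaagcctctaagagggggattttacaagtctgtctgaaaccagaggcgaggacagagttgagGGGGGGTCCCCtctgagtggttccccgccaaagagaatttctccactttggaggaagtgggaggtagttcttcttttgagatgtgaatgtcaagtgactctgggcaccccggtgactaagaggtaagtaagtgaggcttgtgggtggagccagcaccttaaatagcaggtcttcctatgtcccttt
The CXCL10 window held the interferon core at 221 bases and kB matches at 177 and 122 bases before the start. The CCL22 window held 2 overlapping kB matches, at 186 and 185 bases. Both CXCL13 windows lacked the letters of the kB consensus and of the interferon core. The window shown had TATA matches at 153 and 151 bases, which overlap on opposite strands, and at 35 bases, and the other had 1. CCL3 had 3 starts in the table, none with a kB or interferon match, and no window was found there for CCL4 and PF4. Of all 35116 windows of this length, 9.96% held the kB consensus, 3.02% the interferon core and 10.7% the TATA box. A match is a description of letters and not a binding site.

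The inhibitor arrays asked what doxycycline, which induces the hairpin, did to these genes while IKKb was blocked. Both CXCL13 probes and 5 of 7 CXCL10 probes fell, the only complete PF4 probe rose, and 1 of 4 complete CCL4 probes rose. No CCL3 or CCL22 probe passed. Each probe was tested with limma against 0 over all 9788 probes with 4 values, with Benjamini-Hochberg adjustment, and an adjusted p under 0.05 was the threshold. Of the 19 complete chemokine probes 9 were called, 7 lower and 2 higher, where the share over all probes was 10% (6.27% lower and 3.73% higher). Probes of a gene are read on the same arrays and are not independent. For the genes with called probes, the means of CXCL13, CXCL10, PF4 and CCL4 were -0.75, -0.39, 0.62 and 0.26 on the 3 h array alone. On the 24 h array alone they were -1.85, -0.905, 1.06 and 0.38. The median of the 19 was -0.42, against -0.02 for all probes, but 7 of the 19 belong to CXCL10. By gene, the means with inhibitor were -1.30 for CXCL13, -0.65 for CXCL10 and -0.42 for CCL22. For CCL3, CCL4 and PF4 they were -0.01, 0.32 and 0.84.

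CXCL13 was furthest from 0. Probe 17274 read -0.13 and -0.36 at 2 and 3 days without inhibitor, then -0.79 with 3 h and -2.12 with 24 h of inhibitor. Probe 35219 read -0.09, -0.41, -0.71 and -1.58 in the same order. For both probes the 24 h array was the lowest. Averaged over both probes the mean with inhibitor was -1.30 ± 0.78 (SD, n = 2), 2.46-fold lower, and without inhibitor -0.25 ± 0.19, 1.19-fold lower. The large SD is the step between the 3 h and 24 h arrays, which also differ in the day of doxycycline. Limma gave both probes an adjusted p of 0.00947 with inhibitor, and 0.769 and 0.69 without it. In each of the 10 other fits tried both probes, or their average where probes were averaged, were called (adjusted p at most 0.0368), while the mean was -0.75 on the 3 h array alone and -1.85 on the 24 h array alone.

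CXCL10 moved the same way with smaller ratios. Probe 32625 read 0.06 and -0.32 without inhibitor and -0.54 and -1.07 with it. Probe 19337 read -0.12, -0.34, -0.57 and -1.03, and probe 35066 read 0.17, -0.31, -0.42 and -1.02. All 7 probes were below 0 on both inhibitor arrays, where they ranged from -0.57 to -0.10 at 3 h (median -0.40) and from -1.07 to -0.68 at 24 h (median -0.93). Without inhibitor 6 of 7 were above 0 at 2 days (-0.12 to 0.29) and all 7 below it at 3 days (-0.34 to -0.04). The SD between the 7 probes was 0.12 to 0.16 on each array. Since the probes share the arrays, this SD does not measure the error between arrays. The mean over probes was -0.65 ± 0.36 (SD, n = 2) with inhibitor, 1.57-fold lower, and -0.05 ± 0.25 without it, 1.04-fold lower.

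The 5 called CXCL10 probes had means of -0.80, -0.80, -0.72, -0.66 and -0.63 (adjusted p 0.0144 to 0.0402). The other two, 25182 and 27463, stood at -0.52 (adjusted p = 0.064) and -0.40 (adjusted p = 0.16). The number of called CXCL10 probes moved with the fit in both directions. All 7 were called with the doxycycline day as a block (adjusted p 0.00199 to 0.0288), where 26.7% of all probes were called. With its probes averaged into 1 value the adjusted p was 0.0634. After scaling of arrays to equal spread, or with probes lacking some values included, 2 of 7 were called, with 5.5% and 8.31% of all probes. The CXCL10 calls depended on the 24 h array. The mean was -0.39 on the 3 h array alone and -0.905 on the 24 h array alone.

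**Figure D1:**
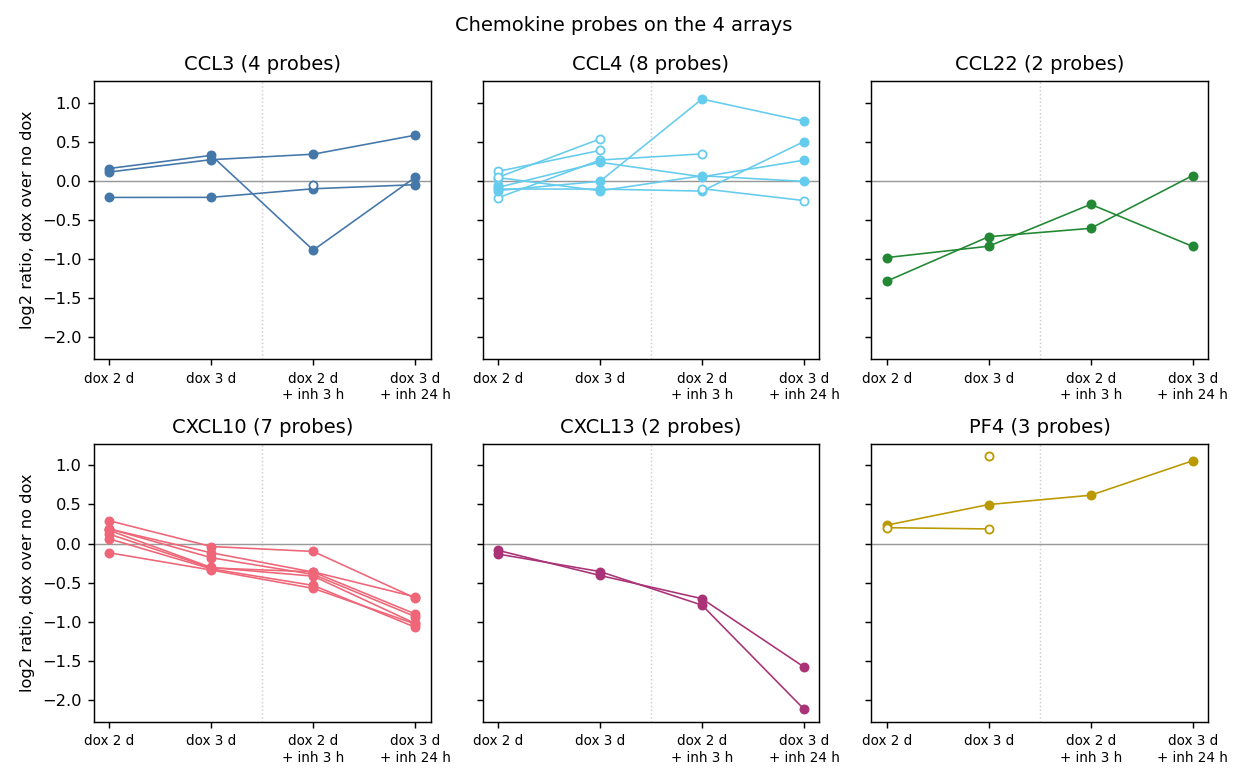
Log2 ratio of doxycycline over no doxycycline (vertical axis) on the 4 arrays for each probe of the 6 genes; points joined by a line are 1 probe, open points are probes that lack a value on 1 or more arrays, and dox and inh stand for doxycycline and inhibitor. All 7 CXCL10 and both CXCL13 probes are lowest on the 24 h inhibitor array, where they read -1.07 to -0.68 and -2.12 and -1.58, while the CCL22 probes are lowest at 2 days without inhibitor.

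PF4 and one probe of CCL4 stood on the other side of 0. PF4 probe 36046 read 0.24 and 0.50 without inhibitor and 0.62 and 1.06 with it, above 0 on every array and highest at 24 h. Its mean with inhibitor was 0.84 ± 0.31 (SD, n = 2), 1.79-fold higher (adjusted p = 0.0121), and without inhibitor 0.37 ± 0.19, 1.29-fold (adjusted p = 0.374). The call ended without the 24 h array (adjusted p = 0.094). The other two PF4 probes lacked values: 36677 read 0.20 and 0.19 without inhibitor and was empty with it, and 35940 held only 1.12 at 3 days without inhibitor. All 7 PF4 values were therefore above 0, but only 1 probe was read with inhibitor. Of platelet and megakaryocyte markers 4 of 10 probes were complete, none was called, and their median was 0.13 without and 0.23 with inhibitor; their part in the PF4 values was not tested.

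CCL4 differed between its probes. Probe 32654 read -0.12 and -0.01 without inhibitor and 1.05 and 0.76 with it, a mean of 0.90 with inhibitor, 1.87-fold higher (adjusted p = 0.00665). With inhibitor, the 3 h value of this probe was the higher one. The other three complete probes did not follow it. Probe 15850 read -0.11 and -0.11 without inhibitor and -0.13 and 0.50 with it, 26408 read 0.04, -0.13, 0.07 and -0.01, and 28410 read -0.08, 0.24, 0.05 and 0.26 (adjusted p 0.503 to 0.913). Of the 4 incomplete probes, 26409 read -0.06 at 2 days without inhibitor, -0.10 at 3 h and -0.25 at 24 h. Probe 28398 read -0.22 and 0.27 without inhibitor and 0.35 at 3 h. Probes 30468 and 34959 were empty with inhibitor and read 0.12 and 0.39, and 0.05 and 0.54, without it. The mean of the 4 complete probes was 0.32 ± 0.09 with inhibitor, and with the probes averaged the adjusted p was 0.12.

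CCL3 had no called probe, though 1 of 3 passed with the doxycycline day as a block (adjusted p = 0.0145 with inhibitor), where 26.7% of all probes were called. Probe 16426 was above 0 throughout, at 0.11 and 0.27 without inhibitor and 0.34 and 0.58 with it (adjusted p = 0.065 with inhibitor). Probe 16822 read 0.16 and 0.33 without inhibitor, -0.89 at 3 h and 0.05 at 24 h, so that 1 array set its mean of -0.42 with inhibitor (adjusted p = 0.201). Probe 26474 stayed below 0 at -0.21, -0.21, -0.10 and -0.05, and probe 26475 held only -0.05 at 3 h. The mean of the 3 complete probes was -0.01 ± 0.29 with and 0.07 ± 0.08 without inhibitor. The SD between these probes was 0.20 to 0.62 on an array, while the 4 array means lay between -0.22 and 0.19. On the 3 h array alone the mean was -0.22, with probe 16822 lowest at -0.89. On the 24 h array alone it was 0.19, with probe 16426 highest at 0.58. CCL3 and CCL4 are neighbours in the genome and have near-identical gene copies in humans; no probe was annotated to CCL3L1, CCL3L3, CCL4L1 or CCL4L2, and whether these probes also read the copies was not tested.

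The arrays without inhibitor asked about doxycycline in cells with the hairpin, with no block of IKKb. There CCL22 had the lowest ratios of the 6. Probe 36447 read -0.98 and -0.84 at 2 and 3 days without inhibitor, then -0.30 at 3 h and -0.84 at 24 h of inhibitor. Probe 37437 read -1.28 and -0.71, then -0.61 and 0.07. Both probes were lowest at 2 days without inhibitor, and only 37437 at 24 h was not below 0. Their mean without inhibitor was -0.95 ± 0.25 (SD, n = 2), 1.94-fold lower, with an adjusted p of 0.0542 for each probe, which misses the threshold. With inhibitor the mean was -0.42 ± 0.05, while single probes had -0.57 (adjusted p = 0.0503) and -0.27 (0.397). Of these, 1 passed with a robust prior (0.0458) or with the day as a block (0.0175), fits that called 10.3% and 26.7% of all probes. The 2 probes differed by more on the 24 h array (SD 0.64) than on the others (0.09 to 0.22).

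Without inhibitor limma called 0 of the 19 chemokine probes and 0.245% of all probes, 24 of 9788, and 3 of the 19 had an unadjusted p under 0.05 (both of CCL22 and the PF4 probe). CCL22 passed on both probes after scaling to equal spread (mean -1.28, adjusted p 0.00999 to 0.0334), where 4.05% of all probes were called. It also passed on both with the doxycycline day as a block (0.0026 to 0.00929), where 5.11% were called. On 1 probe it passed with a robust prior, where 0.644% were called. Leaving out an inhibitor array kept the CCL22 mean at -0.954, and the spread then rests on the 2 arrays without inhibitor. With 1 of its own arrays left out the adjusted p was 0.202 to 0.662, and the mean was -0.78 without the 2-day and -1.13 without the 3-day array. A rule of size, with no test, took probes that exceeded 1.5-fold the same way at each time of a group. Both CCL22 probes met it without inhibitor, the lower 2 of 23 chemokine probes read on both arrays, where 1.07% of all probes were lower and 0.0655% higher. With inhibitor 4 of 20 met it, both CXCL13 probes lower and the PF4 and CCL4 probes named above higher, where 3.05% of all probes were lower and 1.37% higher.

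**Figure D2:**
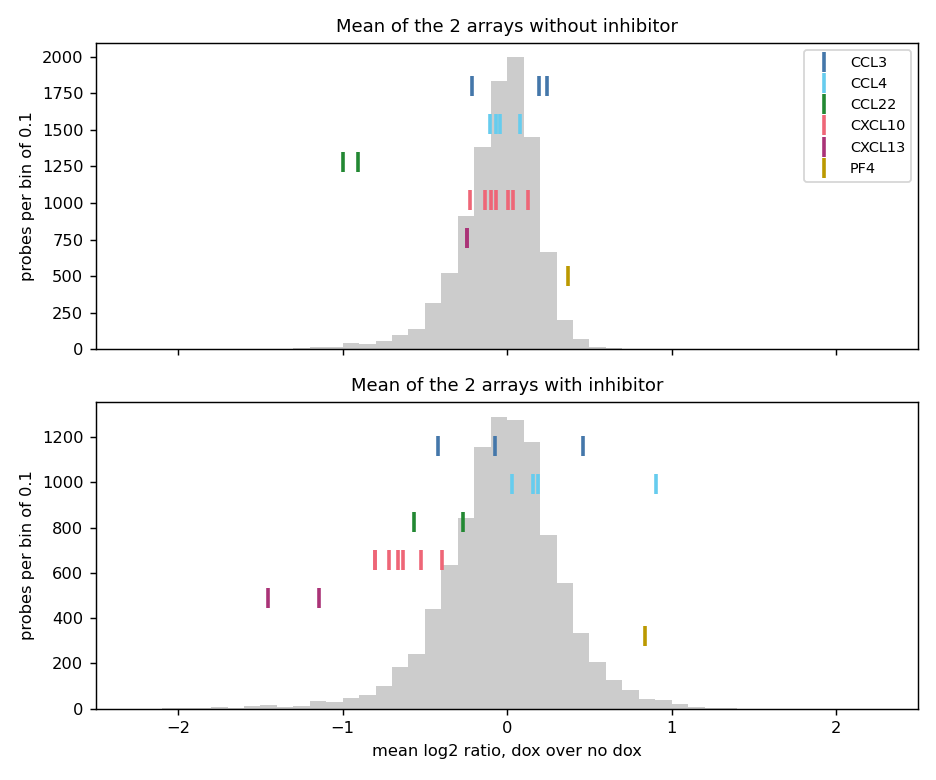
Number of probes per bin of mean log2 ratio (grey bars, all 9788 probes with 4 values) on the 2 arrays without (top) and with inhibitor (bottom), with the 19 complete chemokine probes as ticks by gene; the height of a tick has no meaning. The CCL22 ticks, at -0.999 and -0.908, stand in the left tail without inhibitor, and those of CXCL13, at -1.45 and -1.14, with it.

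Whether the ratio itself changed with the inhibitor was tested as the difference between the groups, where any dye effect that a probe shows equally on all arrays drops out. CXCL13 had the lowest difference of the 6 genes, -1.05 averaged over probes, made of -0.64 at 2 days and -1.47 at 3 days. Among all 9788 probes its probe 17274 (-1.21, SE 0.36) ranked 3rd from the lowest and probe 35219 (-0.89, SE 0.28) 26th. CXCL10 differed by -0.60, with -0.52 at 2 and -0.67 at 3 days. Each of its 7 probes was lower with inhibitor on both days, by 0.39 to 0.60 at 2 days and by 0.37 to 0.78 at 3 days.

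CCL22 differed the other way, by 0.53. At 2 days the difference was 0.68 for each of its probes, and at 3 days 0.78 for 37437 and -0.002 for 36447. CCL4 differed by 0.35, most of it from probe 32654 (0.97, SE 0.20), which differed by 1.17 at 2 and 0.77 at 3 days. PF4 differed by 0.47, with 0.38 and 0.56 on the 2 days, and CCL3 by -0.09, with probes of either sign. With inhibitor 12 of 21 chemokine probes were lower at 2 days and 11 of 19 at 3 days, against 50% and 41.1% of all probes. All 7 CXCL10 and both CXCL13 probes were among these on each day. CCL4 had 2 of 6 and 0 of 4 lower, CCL22 0 of 2 and 1 of 2. CCL3 had 1 of 3 lower and PF4 0 of 1 on each day. The pooled counts are thus no result about the 6 genes as a set.

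No difference passed: limma called 0 of 19 chemokine probes and 0% of all 9788 (smallest adjusted p 0.746). At an unadjusted p under 0.05 there were 10 of the 19, 5 of CXCL10, 2 of CXCL13 and 1 each of CCL3, CCL4 and CCL22, and 522 of 9788. Without the 3 h inhibitor array 7 of the 19 were called, both of CXCL13, 4 of CXCL10 and 1 of CCL22, with 2.63% of all probes. Without the 24 h array 2 were called, 1 each of CCL3 and CCL4, with 0.49% of all probes. In these fits the spread comes from the 2 arrays without inhibitor alone.

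**Figure D3:**
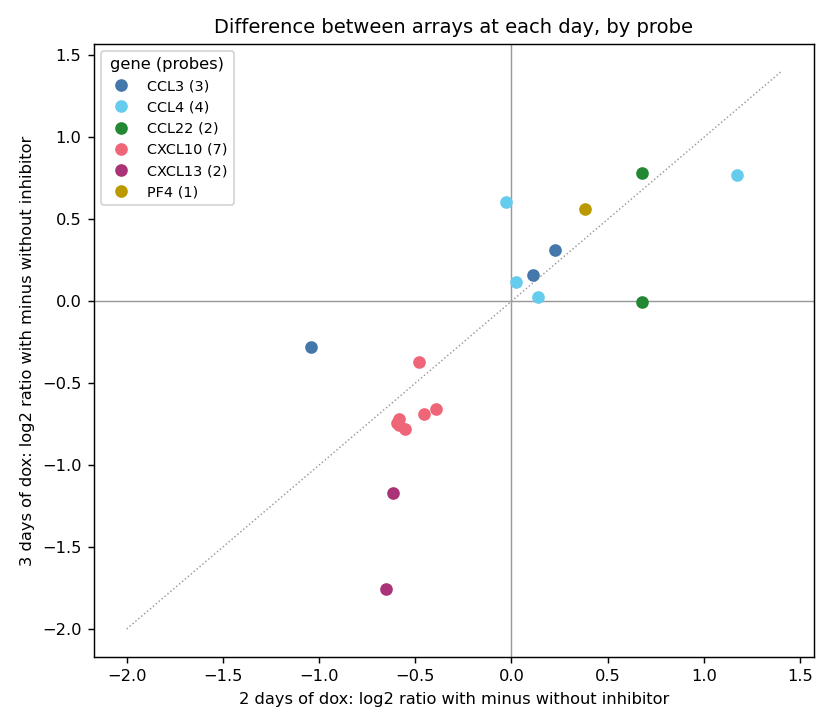
For each of the 19 complete probes, the log2 ratio with inhibitor minus that without it at 2 days (horizontal) and 3 days (vertical) of doxycycline; the dotted line marks equal differences. All CXCL10 and CXCL13 probes lie below 0 on both axes, CXCL13 down to -1.76 at 3 days, and the CCL4 probe 32654 lies at 1.17 and 0.77.

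Other chemokine genes were taken from lists of 42 ligands and 23 receptors. Of the ligands, 32 were on the array with 85 probes, 35 of them complete. With inhibitor 1 of these 35 fell and 3 rose, and without it 0 were called (limma, adjusted p under 0.05). With 10% of all probes called with inhibitor, 4 of 35 is near the background and no result about the ligands. Those that rose were 1 probe each of CCL8 (0.94), a ligand that attracts monocytes, CCL5 (0.76), which attracts T cells, and CX3CL1 (0.71), the gene that follows CCL22 along the chromosome. CCL21, which guides cells into lymph nodes, fell on 1 of 2 complete probes (-0.61). The other 3 complete probes of CCL5 and the other of CX3CL1 and CCL21 did not pass. The median of the 35 was 0.15 with and 0.10 without inhibitor, against -0.42 and -0.07 for the 19 probes of the 6 genes. Of those 19, 7 belong to CXCL10, and the 6 gene means with inhibitor ran from -1.30 (CXCL13) to 0.84 (PF4). CXCL11, which lies beside CXCL10, read -0.04, 0.10, -0.01 and 0.08 on its 1 complete probe, and CXCL9, a related ligand of CXCR3, had 3 complete probes, none called. PPBP, the platelet chemokine gene beside PF4, read 0.54 and 0.69 without inhibitor on 1 probe, which was empty with it.

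Of 55 receptor probes 24 were complete, and with inhibitor 3 fell and 3 rose, where 6.27% of all probes fell and 3.73% rose. CCR7, the receptor that brings B and T cells into lymph nodes, fell on its 1 complete probe, 19339, at -0.80 and -0.24 without and -0.72 and -1.21 with inhibitor (adjusted p = 0.0116). A further CCR7 probe, 32655, read -0.77 at 2 days, -0.82 at 3 h and -1.91 at 24 h, and probe 34041 read -0.005 and 0.14 at 2 and 3 days without inhibitor and 0.23 at 24 h. CXCR5, the receptor of CXCL13, fell on 1 of 5 complete probes (34232, mean -0.69, adjusted p = 0.0182). CXCR4, the receptor of CXCL12 on B cells, rose on 1 of 6 (0.62, adjusted p = 0.0438), and CCR6 rose on its 1 probe (0.58, 0.0484). CX3CR1 had 1 probe that rose and 1 that fell. CXCR3 and CCR4, the receptors of CXCL10 and CCL22, had no complete probe.

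**Figure D4:**
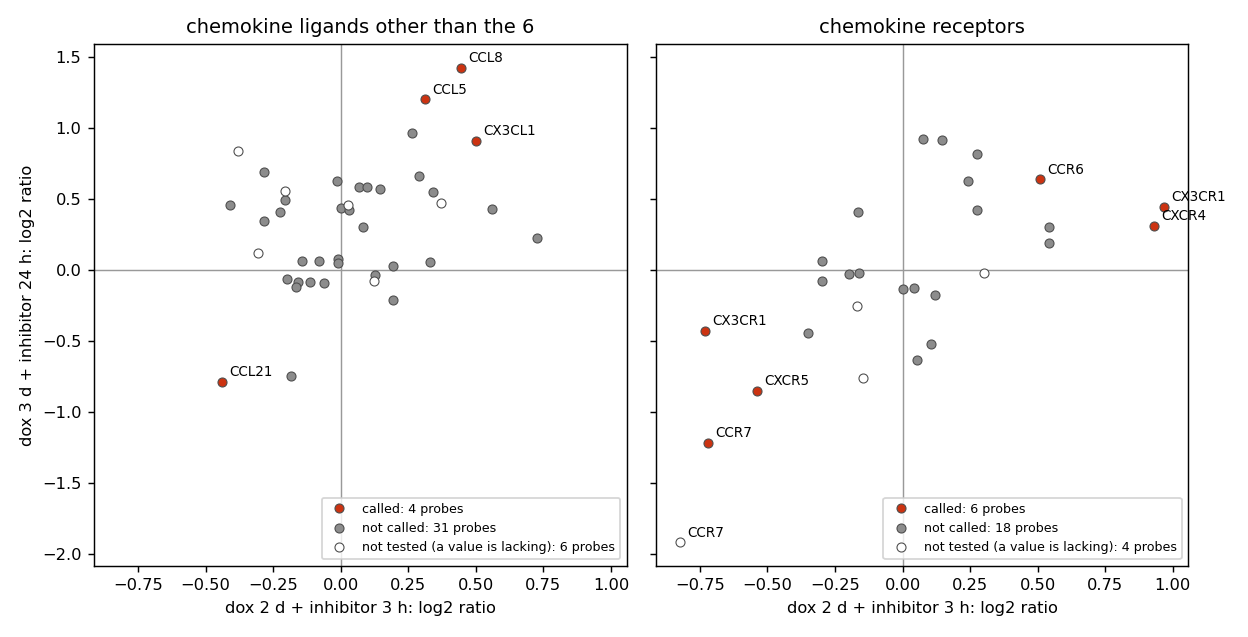
Log2 ratio on the array with 3 h (horizontal) and 24 h of inhibitor (vertical) for probes of chemokine ligands other than the 6 genes (left) and of chemokine receptors (right) with a value on both. Called probes are red and named, complete probes not called are grey, and untested probes are white; CCR7 stands lowest on the right, with an untested probe at -0.82 and -1.91.

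Of 113 complete probes of other NF-kB target genes, 26 fell with inhibitor and 0 rose (limma), where 6.27% of all probes fell and 3.73% rose, and the median was -0.26. TNFAIP3, which encodes the feedback inhibitor A20, fell on 6 of 6 probes and NFKBIA, which encodes IkBa, on 5 of 5. Their lowest probes stood at -1.13 and -1.12, between the means of CXCL10 and CXCL13. Of complete probes, NFKB1 fell on 1 of 2 (-1.09), IRF4 on 2 of 4 (lowest -0.93), ICAM1 on 2 of 4 (lowest -0.80) and CFLAR on 1 of 2 (-0.73). REL fell on each of its complete probes (-0.58 and -0.66). CD40, TNF, FAS, LTB and CD83 had probes that fell beside complete probes that were not called. Some of these stood above 0, among them 24601 of CD40 (0.45), 17212 of LTB (0.44) and 25052 of CD83 (0.34). IL6 had 1 of 3 complete probes called, at -1.26, while the other two were above 0 at 24 h, and TRAF1 had an untested probe at -1.22. Of 54 complete probes of interferon response genes 0 fell and 2 rose, both of OAS1 (0.60 and 0.58), while CXCL10, which belongs to both kinds, had 5 of 7 that fell. CHUK itself fell on both probes with inhibitor, the lower one at -1.33, and on that probe without it (-1.03, adjusted p = 0.0344). Its sign was used to set the direction of the ratios and is no separate result. Of 48 complete probes of B cell markers 6 fell and 3 rose with inhibitor, CR2 having 1 of each, and of 17 for T cell markers 1 rose, that of CD7; whether these bear on the chemokine ratios was not tested.

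By distance over the 4 arrays among 3589 genes, the genes nearest to CXCL10 were CFLAR, an inhibitor of death receptor signalling, at 0.191, SNX18 at 0.262 and F5 at 0.284. CFLAR read 0.06, -0.26, -0.46 and -0.74. Nearest to CXCL13 were NOC3L (0.358), MIOS (0.446) and MARCHF6 (0.623), and to CCL22 BTN2A2 (0.485), KCNA3 (0.575) and ATF2 (0.592). Nearest to PF4 were FGF9 (0.187), GRAP (0.22) and CAMP (0.241), to CCL4 DDIT3 (0.0344), TMEM184C (0.07) and DNAH11 (0.0988), and to CCL3 SEPTIN1 (0.0714), GPX7 (0.0785) and CBS (0.0857). Genes with small ratios have many near neighbours, so a short distance says little for CCL3 and CCL4.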

How the data were processed

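The authors deposited a table of log2 ratios, taken as base 2 since its values span 13.1 units. How its base, direction, background correction and normalization were set, and why some cells are empty, was not given in the sources used here. Array medians of -0.007 to 0 show values that look centred. Scanner signals were not used, signal over background is unknown, and 4 arrays limit the precision. By the platform's annotation, 10169 of 15246 probes carried 1 symbol, 4 several and 5073 none, and 10128 matched RefSeq by gene identifier. Probes were fitted with limma 3.58.1 in R 4.3.3 (lmFit, eBayes; 2 residual and 7.99 prior degrees of freedom) with a mean for each group of 2 arrays, two-sided, adjusted by Benjamini-Hochberg over the 9788 probes with 4 values. Probes lacking values were described, not tested. The fit was tested on simulated data. The 6 genes, the lists, the tests and the alternatives were chosen with earlier results of these data known. Named were the 6 genes by probe, fixed comparison genes, up to 8 genes of each list that passed or exceeded 1.5-fold, and the 3 genes nearest to each of the 6. Genes named beside these, CXCL9, CXCL11 and PPBP among the ligands, were picked as genomic neighbours or relatives.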

Additional observations from a re-analysis of the deposited data

Results flagged for a closer look

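The CCL4 probe 32654 had both arrays without inhibitor below 0 and both with inhibitor above it. How many of all probes split in this way was not counted. The difference between the groups was 0.97, and limma's test of this difference gave an adjusted p of 0.746.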

How the results depend on the processing

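Without inhibitor the count of 0 called chemokine probes became 2 at an adjusted p under 0.10, 2 after scaling to equal spread, 2 with the doxycycline day as a block and 1 with a robust prior, and it ranged from 0 to 2 with each array left out. With inhibitor the count of 9 became 13 with the doxycycline day as a block, 12 at an adjusted p under 0.10, 10 with a robust prior, 6 after scaling, 6 with probes lacking values and 2 of 6 genes when probes of a gene were averaged, and it ranged from 4 to 13 with each array left out. For the difference the count of 0 ranged from 0 to 7 with each array left out, and centring on the median changed no count of called chemokine probes. A 2-fold rule left 0 probes in either group in place of 2 and 4. Among the means of the 6 genes, 2 moved by more than the SD between arrays, both of CCL22 after scaling to equal spread (to -1.28 without inhibitor and 0.90 for the difference). The other means say little of stability, since most alternatives leave a mean as it is and 1 of 2 arrays left out cannot move it by a full SD. The cause of these changes was not tested. Over all probes the count of 24 without inhibitor became 185 at an adjusted p under 0.10, 396 after scaling, 500 with the block, 63 with a robust prior, 0 when averaged or with probes lacking values, and 0 to 539 with each array left out. The count of 979 with inhibitor became 1782, 538 and 2613 under that threshold, scaling and the block, 164 of 3589 genes when averaged, and 436 to 1839 with each array left out. The count of 0 for the difference became 16 with probes lacking values, and 0 to 257 with each array left out. The rule of size cannot be read with an array left out. Signal over background is unknown, so a dim probe cannot be told from a bright one.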
